A study of Bos taurus with 8 samples.

Results

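LEF1-negative CD4 T cells of Holstein cattle blood were cells whose transcripts included the CD3 complex and CD4 but no LEF1. Members were chosen by their measured UMI counts, a UMI being 1 tagged transcript molecule counted once. A cell had 200 to 3000 detected genes, at least 2000 UMIs, at least 2 UMIs of CD3D, CD3E and CD3G together and at least 1 UMI of CD4. It had 0 UMIs of LEF1, FOXP3, CD8A, CD8B, the gamma-delta T cell genes WC1 and WC1.3, the B cell gene MS4A1 and the monocyte gene CD14, and at most 1 UMI of GNLY, PRF1, GZMB and CTSW together. The rule selected 2064 of 30756 barcodes, of which 24652 lay within the depth limits.

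CD4 T cells read peptides shown on MHC class II through the T cell receptor and steer other immune cells with cytokines and surface ligands. Naive CD4 cells enter lymph nodes with the help of the chemokine receptor CCR7 and carry the transcription factors LEF1 and TCF7. Cells that have met antigen tend to lose these and gain genes of adhesion and migration such as S100A4, and among them helper subsets are told apart by lineage factors and cytokines. Lipopolysaccharide (LPS), a component of the outer membrane of Gram-negative bacteria, is sensed mainly by monocytes through CD14, TLR4 and MD-2, which then release cytokines and interferons that other leukocytes can respond to.

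The blood came from 4 female lactating Holstein cattle aged 2 years and was pooled before it was divided into 4 parts. 1 part received no LPS and the others LPS at 2 µg/ml, with 2 h, 4 h or 8 h of exposure, before peripheral blood mononuclear cells were isolated. Each treatment was thus 1 library of pooled animals with no replicate, no incubation time is given for the part without LPS, and an effect of LPS and an effect of incubation cannot be told apart. Cells of 1 library are not replicates of a treatment, so no test between times was possible and intervals are 95% exact intervals for counting error only: Poisson for a level, Clopper-Pearson for a share and conditional binomial for a ratio. The Poisson and conditional binomial intervals leave out the spread of a gene between cells, so they are too narrow where UMIs gather in few cells. Levels are CPM, counts scaled to a total of 1e+06 UMIs, over all UMIs summed over the members of a library. Each ratio is log2 of CPM with 1 added to both terms, its interval is that of the CPM ratio itself, and a gene was called past a 2-fold difference. The comparisons at 2 h, 4 h and 8 h all shared the library without LPS.

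The libraries held 8490 (no LPS), 10429 (2 h), 7977 (4 h) and 3860 (8 h) barcodes, with 30902952 to 63770426 UMIs each. Of the 30663 barcode sequences, 93 occurred in more than 1 library. No barcode was a member in more than 1 library, and 9 members had a barcode that was also present in another library.

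The members numbered 577 without LPS and 739, 553 and 195 after 2, 4 and 8 h. They were 8.61% (7.95 to 9.30) of the cells within the depth limits without LPS, 8.49% (7.91 to 9.10) after 2 h, 8.21% (7.56 to 8.89) after 4 h and 7.78% (6.77 to 8.90) after 8 h, so that the 4 intervals overlapped. Among CD4 cells that met every condition other than the one on LEF1, they were 64.1% (60.9 to 67.2) of 900 cells without LPS, 65.6% (62.7 to 68.3) of 1127 after 2 h, 60.2% (57.0 to 63.4) of 918 after 4 h and 47.4% (42.5 to 52.4) of 411 after 8 h. The share of CD4 cells without LEF1 was therefore lowest at 8 h, where its interval lay below those of the other libraries. Depth moved with this share, since the median UMI count of the members was 4437 without LPS and 4537, 5065 and 5988 after 2, 4 and 8 h.

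A count of 0 for LEF1 depended on how deeply a cell was read. Without LPS, 70.7% of the CD4 cells with 2000 to under 4000 UMIs had no LEF1 UMI, against 64.5% at 4000 to under 6000 UMIs and 52.8% at 6000 UMIs or more. The corresponding shares were 71.1%, 63.9% and 60.7% after 2 h, 64.6%, 61.5% and 56.3% after 4 h, and 50.7%, 49.2% and 45.3% after 8 h. In each library the share was lower in each deeper class, and in each depth class it was lowest at 8 h. The interval at 8 h overlapped that of 4 h in each class and, at 6000 UMIs or more, also that without LPS. If all CD4 cells of a library carried LEF1 at 1 common rate, Poisson counting at each cell's own depth would leave 63.3%, 63.8%, 56.9% and 47.0% of them without a LEF1 UMI, against the 64.1%, 65.6%, 60.2% and 47.4% counted. The share from 1 common rate lay within the interval of the counted share in every library other than that of 4 h. LEF1 summed over these CD4 cells was 96.6 CPM without LPS and 92.4 CPM, 103 CPM and 125 CPM after 2, 4 and 8 h.

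**Figure D1:**
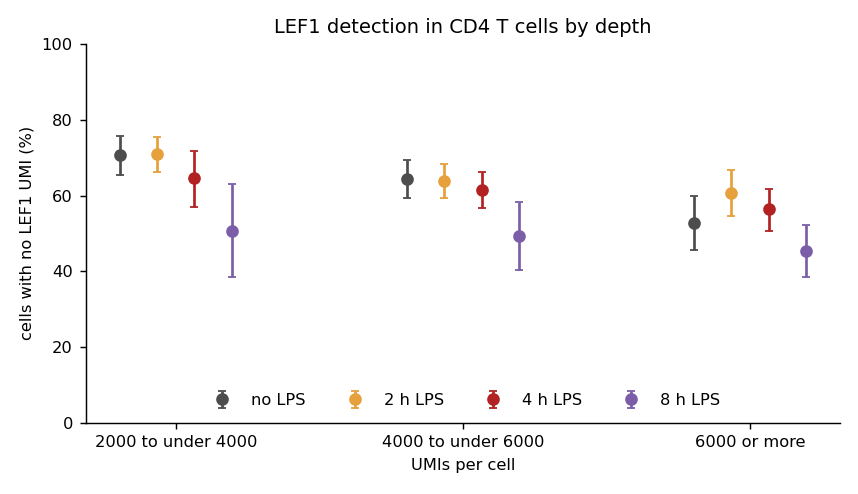
Percentage of CD4 cells with no LEF1 UMI (vertical axis) in 3 classes of UMIs per cell (horizontal axis), for the 4 libraries in colour, with points for the share and bars for the exact 95% binomial interval. The share fell with depth in every library, from 70.7% to 52.8% without LPS, and the 8 h points lie lowest in every class, between 45.3% and 50.7%. The bars of 8 h overlap those of 4 h in every class.

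The marker genes given for the class were present, but they did not set it apart as memory cells. The genes CD3D, CD3E, CD3G and CD4 were part of the rule and only describe it, CD4 being at 390 CPM without LPS and 370, 323 and 328 after 2, 4 and 8 h. SKAP1, an adaptor of T cell receptor and integrin signalling, was at 233, 211, 200 and 199 CPM in the same order, against 196, 189, 163 and 171 CPM in LEF1-positive CD4 cells, which met the same rule with at least 1 LEF1 UMI. RGCC, a regulator of the cell cycle, was at 163, 193, 164 and 108 CPM in the members and at 118, 148, 176 and 130 CPM in LEF1-positive cells. RGCC was thus higher in the members without LPS and at 2 h and lower at 4 h and 8 h, and CD14-positive cells without LPS held 176 CPM of it. Because CCR7 and TCF7 also remained in the members, the class is called here by its rule, LEF1-negative, and not memory.

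CCR7 had at least 1 UMI in 52.5% of the members without LPS, 58.7% after 2 h, 58.6% after 4 h and 64.6% after 8 h. With every cell thinned to 2000 UMIs these shares of CCR7 were 35.0%, 43.8%, 40.7% and 38.5%, against 44.9%, 55.7%, 55.3% and 46.8% in LEF1-positive cells and 40.9%, 47.4%, 42.9% and 38.6% in B cells, which use CCR7 themselves. TCF7 was found after thinning in 33.3%, 24.5%, 24.4% and 23.6% of the members (51.8%, 45.5%, 47.4% and 55.4% unthinned) and in 1.19%, 0.790%, 0.601% and 1.32% of B cells, which should lack it and whose median depths were 4007, 4361, 5016 and 6272 UMIs. The TCF7 share in the members was therefore above that in B cells in every library.

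Levels of the homing genes were nevertheless lower in the members than in LEF1-positive cells. CCR7 summed to 285 CPM without LPS and 392, 331 and 336 after 2, 4 and 8 h in the members and to 345, 525, 532 and 454 CPM in LEF1-positive cells. The log2 difference of CCR7 was -0.27 (-0.43 to -0.12), -0.42 (-0.54 to -0.31), -0.68 (-0.81 to -0.56) and -0.43 (-0.62 to -0.25). S1PR1, the sphingosine phosphate receptor for exit from lymph nodes, was at 44.3, 49.7, 57.8 and 49.7 CPM against 55.8, 69.9, 66.7 and 67.7 CPM, with an interval of the difference that excluded 0 at 2 h alone. TCF7 was at 196, 155, 159 and 182 CPM against 238, 171, 204 and 199 CPM, with intervals of the difference that included 0 at 2 h and 8 h. With cells thinned to 2000 UMIs before the rule, CCR7 stayed lower in the members in every library (-0.61, -0.47, -0.40 and -0.01), but TCF7 turned higher (0.33, 0.01, 0.24 and 0.18). Both groups were chosen with LEF1, a gene of the same programme, so these differences describe the rule, and an exact paired permutation test over 4 libraries could not give a 2-sided p below 0.125.

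Of the 10 naive and homing genes that could be compared in every library, 7 were lower in the members in all 4 libraries and 0 were higher. Among them were CCR7, TCF7, S1PR1, the chromatin organiser SATB1, ACTN1 and the kinase TXK. Across all 6815 genes compared, 9.66% were lower in all 4 libraries and 9.51% were higher. The median log2 difference of the list was -0.28 without LPS, -0.26 after 2 h, -0.23 after 4 h and -0.23 after 8 h, against medians of all genes between -0.01 and 0.02. With cells thinned before the rule only 5 genes of the list could be compared, and their median was -0.0069, 0.0086, 0.24 and -0.0082, so the direction of the list was lost or turned, where the same 5 genes unthinned had medians of -0.28, -0.14, -0.36 and -0.18.

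Genes of antigen-experienced T cells lay on the other side. S100A4, a calcium-binding protein of motile cells, was at 584 CPM without LPS and 566, 480 and 499 after 2, 4 and 8 h in the members, against 409, 364, 218 and 264 CPM in LEF1-positive cells. S100A11, of the same family, was at 750, 662, 656 and 644 CPM against 533, 469, 344 and 418 CPM. The scaffold protein gene AHNAK was at 54.3, 57.4, 56.2 and 53.8 CPM against 35.8, 34.0, 31.0 and 28.9 CPM. All 3 genes were thus higher in the members in every library, and AHNAK changed little with time. CD14-positive cells held 2035 to 3747 CPM of S100A4 and B cells 42.7 to 69.3 CPM, so B cells, which share the free RNA of the library, were below the members.

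Of 25 memory and effector genes compared, 13 were higher in the members in all 4 libraries, among them ANXA2, LGALS1, ITGB1, IL2RB, PRDM1, RUNX3 and BHLHE40, and 2 were lower, LGALS3 and ID2. The median log2 difference of the list was 0.35 without LPS and 0.17, 0.27 and 0.45 after 2, 4 and 8 h. With cells thinned before the rule it was -0.054, 0.35, 0.50 and 0.28 over the 16 genes that could be compared, so that it turned without LPS, where these 16 genes unthinned had a median of 0.23. S100A11 stayed higher in every library under thinning, and S100A4 in all but that of 8 h, at -0.04. Without the 8 h library, the shares over all genes in the 3 remaining libraries were 14.9% higher and 17% lower of 7534.

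The difference followed the LEF1 count. S100A4 was at 584 CPM in cells with 0 LEF1 UMIs, 429 CPM with 1 and 362 CPM with 2 or more without LPS. The series was 566, 418 and 243 CPM after 2 h, 480, 266 and 123 CPM after 4 h, and 499, 380 and 81.5 CPM after 8 h. CCR7 ran the other way, from 285 to 333 and 374 CPM without LPS, from 392 to 512 and 553 CPM after 2 h, from 331 to 496 and 606 CPM after 4 h, and from 336 to 374 and 579 CPM after 8 h. Cells with 1 LEF1 UMI, just outside the rule, therefore lay between the members and the cells with more LEF1.

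The other limits of the rule held fewer cells. The members with exactly 2 CD3 UMIs were 97, 159, 93 and 21 cells with S100A4 at 615, 252, 155 and 22 CPM, and the cells with 1 CD3 UMI just outside were 54, 128, 68 and 15 with S100A4 at 315, 302, 156 and 172 CPM. The members from 2000 to under 2500 UMIs were 38, 36, 15 and 7 cells with CCR7 at 488, 678, 520 and 1486 CPM. The cells from 1500 to under 2000 UMIs, left out, were 8, 11, 3 and 2, with CCR7 at 345, 1294, 1688 and 298 CPM. The members with 1 granule UMI were 11, 28, 18 and 11 cells, and 6, 4, 2 and 0 cells with 2 granule UMIs were left out.

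**Figure D2:**
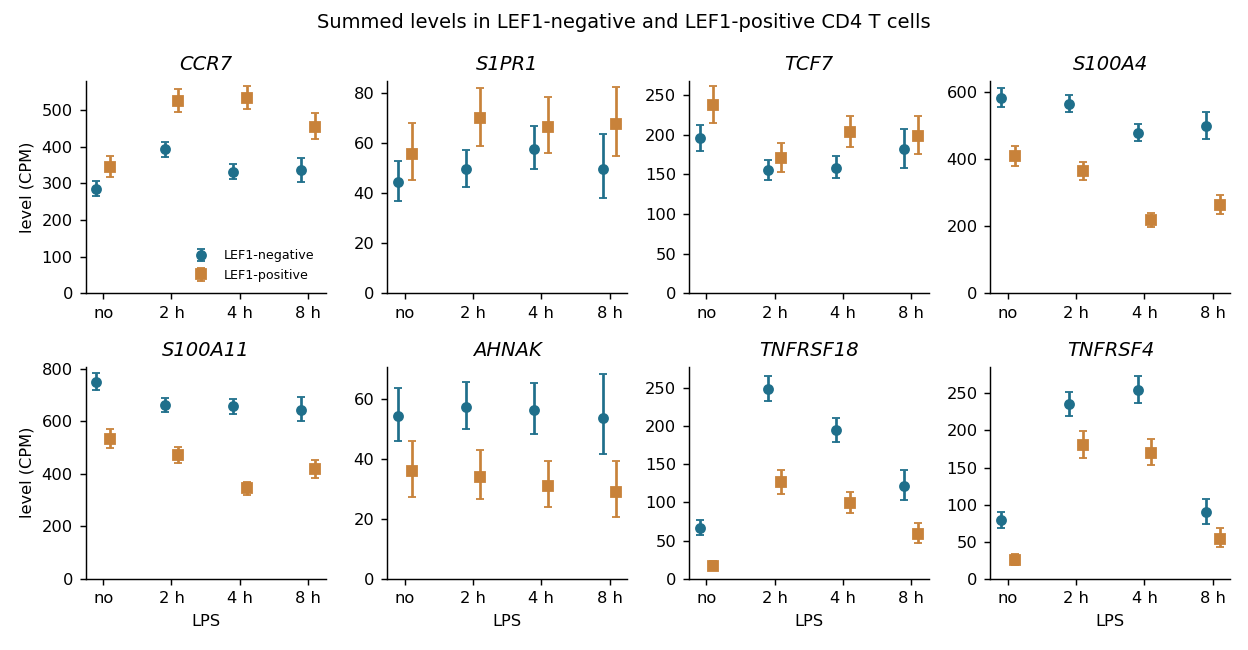
Level in CPM (vertical axis, from 0) of 8 genes in LEF1-negative (circles) and LEF1-positive (squares) CD4 T cells by library (horizontal axis), with exact 95% Poisson intervals as bars. CCR7, S1PR1 and TCF7 lie lower and S100A4, S100A11, AHNAK, TNFRSF18 and TNFRSF4 higher in the LEF1-negative cells in each library, as with S100A4 at 480 against 218 CPM at 4 h. With cells thinned before the rule TCF7 turned higher in all 4 libraries, by 0.01 to 0.33 on the log2 scale, and S100A4 lower at 8 h.

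Ranked by the library with the smallest difference, TNFRSF18, the TNF receptor family member GITR, headed the genes that were higher in the members. It was at 66.1 CPM without LPS and 248, 194 and 121 after 2, 4 and 8 h, against 16.4, 126, 99.6 and 59.2 CPM in LEF1-positive cells. Also among the leading 10 were BHLHE40, a transcriptional repressor, SH2D2A, an adaptor of T cell signalling, AHNAK and PKIB, an inhibitor of protein kinase A. The leading 10 further held BOLA-DOB and BOLA-DRA, class II genes at 9.97 and 46.2 CPM in the members without LPS and at 289 and 2798 CPM in B cells, and CCL4, of which 79.8% of the UMIs without LPS lay in 1 member. The genes at the other end included DAPL1, at 62.8, 56.0, 60.4 and 88 CPM against 102, 107, 133 and 193 CPM, and NRG2, at 2.22, 3.86, 5.11 and 5.70 CPM against 9.40, 9.23, 9.39 and 11.3 CPM.

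At 2 h of LPS the members were marked by genes of the NF-κB pathway. NF-κB is a family of transcription factors that is held inactive by inhibitors and, once released, induces several of those inhibitors itself. Of 15 genes of the list with at least 20 UMIs, 9 were past 2-fold higher at 2 h and 0 lower, against 1.45% higher and 0.861% lower of the 8251 genes of the members compared. The list had a median log2 ratio of 1.15 at 2 h and all 15 genes were above 0. At 4 h, 7 of 15 were past 2-fold higher with a median of 0.90, where 2.14% of 8146 genes were higher and 1.23% lower. At 8 h, 1 of 14 was past 2-fold higher with a median of 0.50, where 1.53% of 7593 genes were higher and 1.5% lower.

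NFKBIA encodes the inhibitor IκBα. It was at 307 CPM (286 to 329) without LPS and 949 (917 to 981), 753 (722 to 784) and 416 (381 to 454) after 2, 4 and 8 h, with no overlap of the intervals. Its level was thus highest at 2 h, 3.08-fold above the library without LPS, and 1.36-fold above it at 8 h. After thinning it was found in 38.1%, 66.0%, 64.6% and 45.1% of the members (58.4%, 82.1%, 81.7% and 71.8% unthinned), and in 41.3%, 69.8%, 57.1% and 48.8% of B cells, which also express it.

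TNFAIP3, the ubiquitin-editing inhibitor A20, was at 31.4 CPM without LPS and 103, 71.6 and 53.0 after 2, 4 and 8 h. The subunit genes followed, with NFKB1 at 77.2, 177, 179 and 110 CPM, NFKB2 at 71.7, 169, 188 and 123 CPM and RELB at 84.9, 209, 176 and 112 CPM. The adaptor TRAF1 was at 16.3, 62.4, 50.5 and 24.4 CPM, and the apoptosis inhibitor BIRC3 at 89.7, 201, 168 and 124 CPM. Each was above its level without LPS at all 3 times, with TNFAIP3, RELB, TRAF1 and BIRC3 highest at 2 h and NFKB1 and NFKB2 highest at 4 h. CD83 had the largest ratio of the list at 2 h, from 9.6 to 44.4 CPM, while B cells held 1222 CPM of it at that time. NFKBID, the gene past 2-fold at 8 h, was at 31.0 CPM there with 52.6% of its UMIs in 1 cell and at 14.7 CPM without that cell.

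The same list moved in the other classes. Its median log2 ratio at 2 h was 0.80 in LEF1-positive cells with 5 of 14 genes past 2-fold, 0.68 in CD8 T cells without granule genes, 1.17 in B cells and 1.39 in CD14-positive cells. At 4 h it was 1.04 in LEF1-positive cells with 7 of 14 genes past 2-fold, above the 0.90 of the members. The other classes then had 0.56 (CD8 T cells), 0.69 (B cells) and 1.22 (CD14-positive cells). At 8 h the LEF1-positive median was 0.40. In the members the median per cell, thinned to 2000 UMIs, was 1 UMI of the list without LPS, 4 after 2 h, 3 after 4 h and 2 after 8 h, and cells with none were 21.1%, 8.12%, 7.23% and 14.9%.

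Activation-linked receptors were also higher. TNFRSF4, the co-stimulatory receptor OX40, was at 79.0 CPM (68.8 to 90.4) without LPS and 235 (220 to 252), 255 (238 to 273) and 89.6 (73.7 to 108) after 2, 4 and 8 h. It was about level between 2 h and 4 h and its 8 h interval overlapped that without LPS. B cells had 4.29 to 5.08 CPM of it, so the members stood above the B cells of the same libraries. TNFRSF18, given above, was 3.71-fold higher after 2 h, 2.91-fold after 4 h and 1.82-fold after 8 h. Its log2 ratio at 8 h, 0.87, was 0.20 with cells thinned before the rule, 0.32 with doublet-type cells left out and 0.42 with cells weighted equally, doublet-type cells being those with a UMI of CD79A, CD79B, CSF1R or LYZ or among the 5% deepest of their library. IL2RA, the high-affinity subunit of the interleukin-2 receptor, was at 53.9, 130, 155 and 79.0 CPM. In LEF1-positive cells the level of TNFRSF4 was lower, at 25.3, 180, 170 and 54.3 CPM, but it rose by a larger factor at each time. TNFRSF18, by the levels given above, also rose by a larger factor there, with 28 UMIs without LPS and 260 after 2 h.

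Transcription factors of activated T cells moved with them. BATF, which pairs with JUN proteins, was at 102 CPM without LPS and 309, 307 and 123 after 2, 4 and 8 h. IRF4, a partner of BATF, was at 4.80, 19.9, 28.4 and 17.9 CPM, and 46.2% of its 13 UMIs without LPS were in 1 cell. BHLHE40 was at 12.9, 58.0, 67.4 and 35.0 CPM. RGS1, which dampens chemokine receptor signalling, was at 122, 323, 386 and 232 CPM, and CD69, an early activation antigen that keeps lymphocytes in tissue, at 20.7, 61.3, 33.2 and 29.3 CPM. All 5 were past 2-fold higher after 2 h, 4 of them also after 4 h, and IRF4 and BHLHE40 still after 8 h.

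The wider lists around these genes moved less. Over all genes compared at 2 h, 1.45% were past 2-fold higher and 0.861% lower. Of 27 early activation genes 5 were past 2-fold higher at 2 h (CD69, NR4A1, IER3, IRF4 and RGS1) and EGR1 was lower, with a list median of 0.23, and the medians at 4 h and 8 h were -0.04 and 0.09. NR4A1 had 21 UMIs in 5 cells at 2 h. Of 11 co-stimulation and checkpoint genes at 2 h, 3 were past 2-fold higher, TNFRSF4, TNFRSF18 and TNFRSF9, the last with 82.8% of its 29 UMIs in 1 cell. The median of that list was 0.02. CD27, a co-stimulatory receptor, was at 143, 101, 86.9 and 103 CPM and not past 2-fold at any time. Of 15 genes of T cell receptor signalling, none was past 2-fold at any time, with medians of -0.04, 0.04 and -0.07.

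The TNF receptor genes marked a set of cells within the class. TNFRSF4, TNFRSF18 or both were detected in 90 members (15.6%) without LPS, 265 (35.9%) after 2 h, 213 (38.5%) after 4 h and 39 (20.0%) after 8 h. Of the thinned cells with TNFRSF4, 35.9%, 47.9%, 52.6% and 41.2% also had TNFRSF18, against 2.97%, 8.91%, 9.38% and 5.06% of the cells without TNFRSF4, so the share with TNFRSF18 was the higher of the pair in every library. IL2RA was found in 20.5%, 31.3%, 31.0% and 29.4% of the thinned cells with TNFRSF4 and in 5.76%, 10.9%, 11.7% and 10.7% of the others. These shares are descriptions of cells of 1 library each.

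Members with either receptor differed from the rest in genes that had not selected them. S100A4 was at 1422 CPM in these members and 413 CPM in the rest without LPS, 988 and 287 CPM after 2 h, 686 and 335 CPM after 4 h, and 634 and 454 CPM after 8 h. BATF was at 310 and 60.0 CPM, 633 and 94.0 CPM, 592 and 107 CPM, and 279 and 71.5 CPM. NFKBIA was at 568 and 254 CPM, 1393 and 656 CPM, 1071 and 529 CPM, and 568 and 366 CPM. The cells with either receptor were deeper, with median UMI counts of 4672.5 against 4369, 5014 against 4424.5, 5360 against 4894.5 and 7395 against 5784.5, and the part of depth in these differences was not tested. CTLA4, a checkpoint receptor of activated and regulatory T cells, was at 98.3 and 27.1 CPM without LPS and at 58.3 and 21.1 CPM at 2 h. It was at 59.7 and 24.5 CPM at 4 h and at 49.3 and 30.3 CPM at 8 h. Part of its UMIs without LPS lay in 1 cell, as given below, and the weight of that cell in the difference was not tested. The condition on FOXP3 had left 1058 of 1068, 1290 of 1301, 1037 of 1042 and 477 of 481 cells, so FOXP3 was rarely detected and regulatory cells in which it was missed cannot be told apart from other members.

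**Figure D3:**
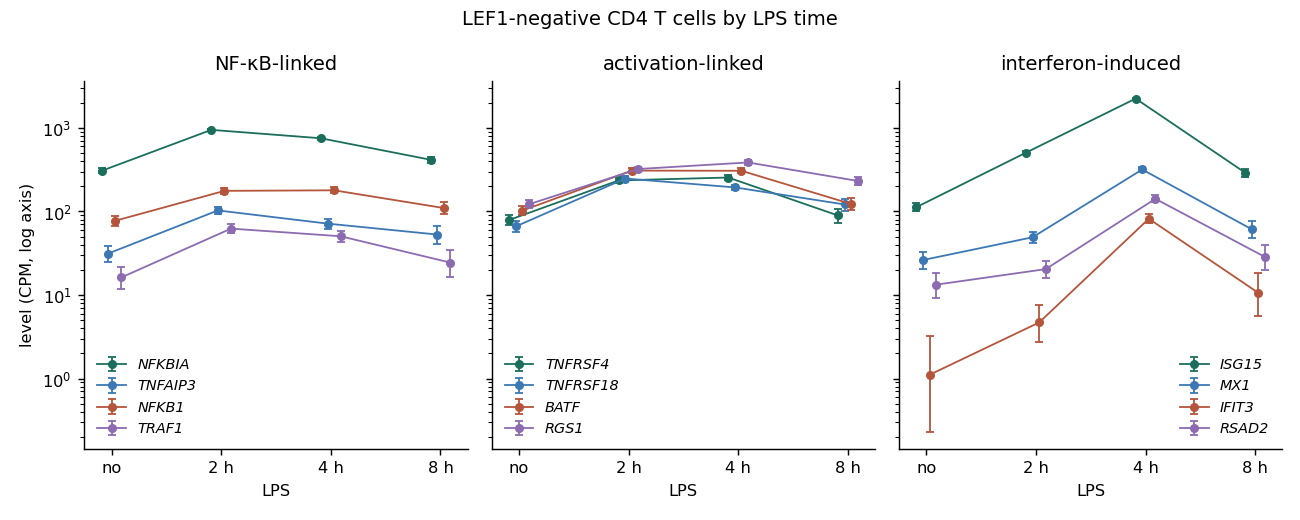
Level in CPM (vertical axis, log scale) of 4 NF-κB-linked, 4 activation-linked and 4 interferon-induced genes in the LEF1-negative CD4 T cells of each library (horizontal axis), with exact 95% Poisson intervals as bars. NFKBIA is highest at 2 h at 949 CPM, TNFRSF4 and BATF are about level between 2 h and 4 h, and ISG15 stands highest at 4 h at 2247 CPM.

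At 4 h the members carried genes that type I interferon induces in most cells. Of 36 genes of the interferon list, 31 were past 2-fold higher at 4 h and 0 lower, with a median log2 ratio of 1.75. At 2 h, 6 of 35 were past 2-fold higher, among them ISG15, IFIT2, IFIT3, OAS1Y and DHX58, with a median of 0.33, but with a pseudocount of 5 CPM ISG15 alone was. At 8 h, 8 of 33 were, among them ISG15, MX1, MX2, RSAD2 and STAT2, with a median of 0.56, and with that pseudocount 4 were. Over all genes compared, 1.45%, 2.14% and 1.53% were past 2-fold higher after 2, 4 and 8 h. The list thus stood highest at 4 h, later than the NF-κB genes, and was still above 0 in the median at 8 h.

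ISG15, a ubiquitin-like protein that is joined to other proteins, was at 113 CPM (100 to 126) without LPS and 507 (484 to 530), 2247 (2195 to 2300) and 291 (261 to 323) after 2, 4 and 8 h, with no overlap. The ratio to the library without LPS was 4.47-fold after 2 h, 19.8-fold after 4 h and 2.57-fold after 8 h. MX1, a dynamin-like antiviral GTPase, was at 26.2, 49.1, 318 and 61.1 CPM, and its relative MX2 at 7.76, 13, 137 and 24.4 CPM. The oligoadenylate synthetase gene OAS1Y, whose reads can be shared with its copies OAS1X and OAS1Z, was at 6.28, 16.6, 110 and 22.8 CPM and RSAD2, which encodes viperin, at 13.3, 20.4, 142 and 28.5 CPM. IFIT3, which binds viral RNA complexes, had only 3 UMIs without LPS and was at 1.11, 4.69, 81.8 and 10.6 CPM, a log2 ratio of 5.30 (4.64 to 8.49) at 4 h. All of these stood highest at 4 h and all were above the level without LPS at 8 h.

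Regulators of the pathway were also higher at each LPS time than without LPS. IRF7, the factor that amplifies interferon production, was at 84.2 CPM without LPS and 110, 285 and 124 after 2, 4 and 8 h. STAT2, which carries the signal of the type I interferon receptor, was at 14.0, 21.3, 39.3 and 32.6 CPM. Both were highest at 4 h. IFITM3 and IFITM1, membrane proteins that hinder virus entry, stood highest at 8 h, at 82.0, 92.5, 186 and 227 CPM and at 89.4, 90, 155 and 198 CPM.

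The interferon genes were not confined to the members. The list median at 4 h was 1.75 in LEF1-positive cells with 27 of 35 genes past 2-fold, 1.46 in CD8 T cells, 2.31 in B cells and 1.93 in CD14-positive cells. ISG15 at 4 h was at 1512 CPM in LEF1-positive cells, 419 CPM in CD8 T cells and 5190 CPM in B cells. The members lay between CD8 T cells and B cells of the same library, and the part of free RNA in their level was not tested. At 8 h ISG15 was at 291 CPM in the members and 123 CPM in LEF1-positive cells, a log2 difference of 1.24 (0.98 to 1.52), whereas without LPS and at 2 h the difference was -0.07 (-0.34 to 0.19) and -0.07 (-0.18 to 0.04). These intervals leave out the spread between cells, where the variance of ISG15 in thinned members at 8 h was 5.39 times its mean.

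**Figure D4:**
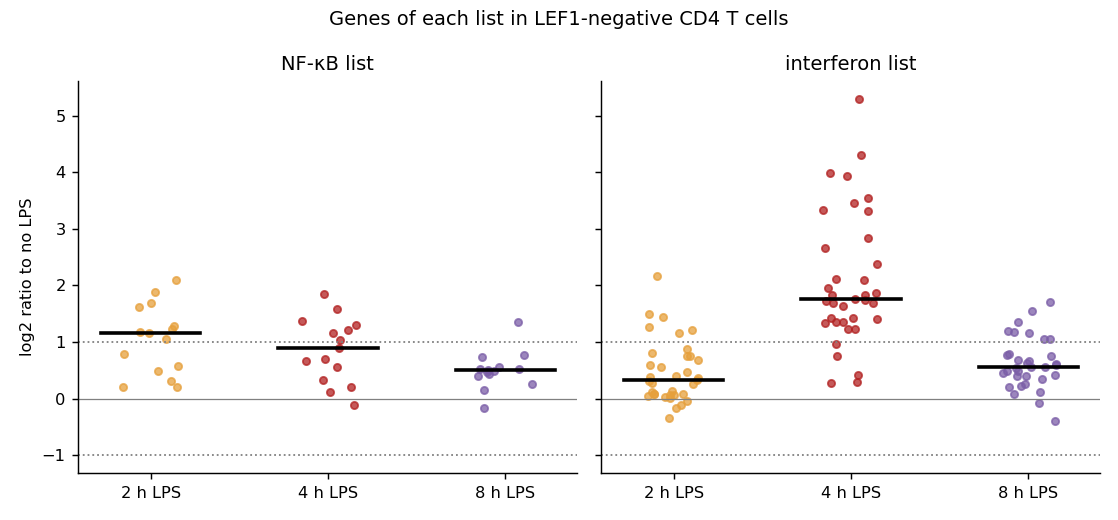
Log2 ratio to the library without LPS (vertical axis) of each gene of the NF-κB and interferon lists with at least 20 UMIs in LEF1-negative CD4 T cells, at 3 LPS times (horizontal axis), with thick lines for the list median and dotted lines at a 2-fold difference. The NF-κB median was 1.15 after 2 h and 0.50 after 8 h, and the interferon median was 0.33 after 2 h, 1.75 after 4 h and 0.56 after 8 h.

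Members differed widely in this response. Thinned to 2000 UMIs, a median member had 3 UMIs of the interferon list without LPS, 4 after 2 h, 7 after 4 h and 4 after 8 h. The highest 10% of members began at 8, 10, 34.8 and 13.6 UMIs and the lowest 10% ended at 1, 1, 2 and 1. At 4 h the lower end thus moved by 1 UMI while the upper end moved more than the median. ISG15 was found after thinning in 10.1% (7.72 to 12.8) of the members without LPS, 24.8% (21.7 to 28) after 2 h, 53.2% (48.9 to 57.4) after 4 h and 25.6% (19.7 to 32.4) after 8 h, and unthinned in 16.5%, 34.0%, 66.4% and 35.9%. In B cells the thinned share of ISG15 was 13.6%, 49.0%, 77.7% and 41.8%, and their median number of list UMIs was 17 at 4 h.

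**Figure D5:**
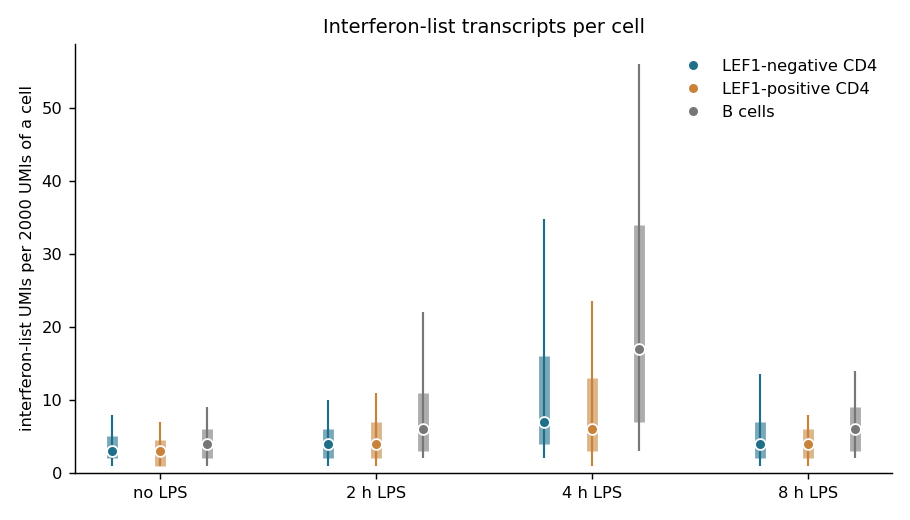
UMIs of the interferon list per cell thinned to 2000 UMIs (vertical axis) in LEF1-negative CD4, LEF1-positive CD4 and B cells of each library (horizontal axis), with points for the median, thick bars for the middle 50% and thin lines from the lowest to the highest 10%. The LEF1-negative median was 3 without LPS and 7 at 4 h, with the upper limit at 34.8, and the B cell median at 4 h was 17.

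Genes linked to interferon gamma moved less than the interferon list. Of 13 such genes at 4 h, 12 were above 0, with a median of 0.35. Past 2-fold higher were 3, GBP2, GBP4 and CXCL10, and 0 were lower, against 2.14% higher of the 8146 genes compared. The medians at 2 h and 8 h were 0.04 and 0.11. GBP2, a guanylate-binding protein, was at 28.1, 40.0, 110 and 58.7 CPM. IFNG itself had 1 UMI without LPS, 26 in 4 cells after 2 h, 36 in 9 cells after 4 h and 4 in 1 cell after 8 h. The interferon gamma transcripts thus lay in few members.

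The LPS receptor was almost absent from the members. TLR4 had 5 UMIs without LPS, 9 after 2 h, 5 after 4 h and 2 after 8 h, that is 1.85, 2.48, 1.60 and 1.63 CPM against 78 to 154 CPM in CD14-positive cells and 2.02 to 4.87 CPM in B cells. LY96, which encodes MD-2, was at 25.1, 27.9, 22.7 and 17.9 CPM, and the adaptor MYD88 at 53.6, 45.8, 43.5 and 46.4 CPM. None of the 7 genes of the list with at least 20 UMIs was past 2-fold at any time, with medians of -0.21, -0.06 and -0.14.

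Lineage genes of helper subsets were found at low levels. GATA3, the factor of type 2 helper cells, was at 69.8 CPM without LPS and 106, 95.5 and 102 after 2, 4 and 8 h, and B cells had 0 to 1.39 CPM. IL17RB, a receptor for interleukin-25, was at 6.65, 14.1, 22.4 and 19.6 CPM in 13, 21, 24 and 9 cells, and its ratio was past 2-fold at 4 h and 8 h. STAT4, which conveys interleukin-12, was at 65.4, 123, 126 and 88.8 CPM, and IL18R1 at 15.1, 25.1, 20.5 and 17.1 CPM against 6.46, 10.2, 7.98 and 11.3 CPM in LEF1-positive cells. CXCR3, a chemokine receptor of type 1 helper cells, was at 18.5, 10.5, 13.4 and 4.89 CPM, past 2-fold lower at 8 h on 6 UMIs.

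Cells with transcripts of the interleukin-17 group were few. IL17A, IL17F or IL22 was detected in 11 of 577 members without LPS (1.91%, 0.955 to 3.39), 11 of 739 after 2 h (1.49%, 0.745 to 2.65), 6 of 553 after 4 h (1.08%, 0.399 to 2.35) and 3 of 195 after 8 h (1.54%, 0.318 to 4.43). The 4 intervals overlapped. Of these cells 7, 4, 2 and 0 also had CXCR6. IL17F had 38, 61, 44 and 2 UMIs, with 60.5% of them without LPS and 81.8% at 4 h in 1 cell. IL22 had 26 UMIs in 3 cells without LPS, 23 in 4 cells after 2 h, 0 after 4 h and 1 after 8 h. IL17F and IL22 were past 2-fold lower at 8 h, on 2 and 1 UMIs.

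Among follicular helper genes TOX2 was past 2-fold higher at 4 h, at 16 CPM against 4.43 CPM without LPS, and the list medians were 0.08, 0.36 and 0.14. Against 1.45% of all genes at 2 h and 2.14% at 4 h, 3 of 6 genes of the regulatory list were past 2-fold higher. These were IL2RA, TNFRSF18 and TNFRSF4 at both times, with list medians of 0.92, 1.06 and 0.19. IL10 was the member that was lower, with 28 UMIs without LPS, 53.6% of them in 1 cell, and 14, 6 and 3 UMIs later. CTLA4 was at 39.1, 35.9, 39.0 and 35.0 CPM and 26.4% of its UMIs without LPS lay in 1 cell. The regulatory list therefore followed the receptor genes and not CTLA4.

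The lists that define T cell states changed little with LPS. Among all genes compared, 1.45%, 2.14% and 1.53% were past 2-fold higher after 2, 4 and 8 h, and 0.861%, 1.23% and 1.5% lower. Of 12 naive and homing genes 1 was past 2-fold higher at each time, NELL2, at 3.69, 10.2, 8.63 and 12.2 CPM, and KLF2 was the 1 lower at 2 h and 4 h, with list medians of 0.00, -0.06 and 0.03. NELL2 was not past 2-fold at any time with a pseudocount of 5 CPM. Of 26 memory and effector genes 2 were past 2-fold higher at 2 h and 4 h, IL2RB and BHLHE40, and at 8 h BHLHE40 alone, with medians of -0.00, 0.08 and -0.02. The log2 ratio of IL2RB at 2 h was 1.41, and 0.35 with cells thinned before the rule. Of 23 T cell transcription factor genes BATF and IRF4 were past 2-fold higher at 2 h and 4 h, with medians of 0.26 and 0.19, and of 22 at 8 h 1 was higher, IRF4, and 1 lower, with a median of 0.27.

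Cytokine and chemokine genes had mixed directions. Of 20 at 2 h, 5 were past 2-fold higher (IL17A, IFNG, CCL3, CCL20 and CXCL8) and IL10 was lower. IL17A then rested on 16 UMIs against 4 without LPS, and IFNG on 26 against 1. The log2 ratio of CCL3 at 2 h, 1.47, was 0.42 with doublet-type cells left out and 2.26 without its highest member. Of 19 genes of the list at 4 h, 3 were higher and 5 lower, and of 17 at 8 h none was higher and 8 were lower. The shares of all genes were 1.45%, 2.14% and 1.53% higher after 2, 4 and 8 h, and 0.861%, 1.23% and 1.5% lower. Without the highest member of each gene 1 of 13 list genes was lower at 8 h, CCL20, and with cells thinned before the rule 0 of 8. CCL3 went from -1.19 to 0.57 without its highest member, CCL4 from -2.68 to -0.49 and CCL5 from -1.50 to -0.68. Of 10 cell cycle genes MKI67 and TOP2A were past 2-fold higher at 2 h and none was past 2-fold at 4 h or 8 h. With doublet-type cells left out MKI67 went from 1.52 to 0.40 and TOP2A from 1.45 to -0.25, so neither was past 2-fold.

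Cytokine receptors mostly kept their levels. IL7R, the receptor for the survival cytokine interleukin-7, was at 1091 CPM without LPS and 1147, 1266 and 941 after 2, 4 and 8 h. Of 20 receptor genes after 2 h, IL2RA and IL2RB were past 2-fold higher and IL12RB1 lower, of 21 after 4 h 3 were higher, and of 19 after 8 h none. Among all genes compared, 1.45% were higher and 0.861% lower after 2 h, and 2.14% were higher after 4 h. IL2RB was at 9.97, 28.2, 25.2 and 14.7 CPM. Trafficking genes had medians of -0.13, -0.06 and 0.01, with CXCR4 at 621, 821, 855 and 699 CPM and GPR183, an oxysterol receptor that guides cells to the edges of follicles, at 179, 237, 239 and 244 CPM. GPR183 was above its level without LPS at each time. CXCR6 was at 51.0, 47.2, 55.0 and 28.5 CPM, about level up to 4 h and lowest at 8 h.

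Several changes against no LPS concerned genes that CD14-positive cells express at much higher levels. At 2 h PTX3, IL1RN, IL6, MARCKS, MT2A, CCL8 and CXCL8 led the rises in the members. PTX3, a pentraxin of innate immunity, was at 15.1 CPM without LPS and 129, 16 and 28.5 after 2, 4 and 8 h, but 69.7% of its UMIs at 2 h were in 1 cell, and without it the level was 39.2 CPM. CCL8, a monocyte-attracting chemokine, was at 16.6, 97.7, 3.52 and 7.33 CPM, with 90.1% at 2 h in 1 cell and 9.66 CPM without it. IL6 was at 4.80, 40.0, 0.639 and 4.89 CPM, with 75.9% at 2 h in 1 cell. CXCL8, a chemoattractant of neutrophils, was at 59.1, 313, 145 and 87.2 CPM, and without the highest cell at 237 CPM at 2 h and 75.1 CPM at 4 h. In CD14-positive cells at 2 h PTX3 was at 14805 CPM, CCL8 at 3145 CPM, IL6 at 4640 CPM and CXCL8 at 23558 CPM.

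A few members held most of these transcripts at 2 h, but not in the other libraries. Over 27 such genes the members had 3382 UMIs without LPS, 6616 after 2 h, 2137 after 4 h and 1377 after 8 h, with a median of 5, 3, 2 and 5 UMIs per member. The member with the most held 9.05%, 21.4%, 26.0% and 6.54% of them, and the top 5 members held 11.4%, 54.1%, 37.2% and 23.5%. At 2 h that member had 17586 UMIs, 1413 of them from these genes. Summed over 15 monocyte markers the members were at 485, 556, 202 and 406 CPM, B cells at 1162, 378, 218 and 435 CPM and CD14-positive cells at 53974 to 76137 CPM, and all 15 markers had a UMI in the members without LPS and after 8 h, 14 after 2 h and 13 after 4 h. CD14 itself was at 0 by the rule. The part of free RNA, of doublets and of the cells' own expression in these genes was not tested.

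MARCKS was spread over more members, at 5.17, 40.6, 33.9 and 19.6 CPM in 13, 61, 55 and 15 cells, with B cells at 320 CPM at 2 h and LEF1-positive cells at 14.6 CPM. IL1RN, the interleukin-1 receptor antagonist, was at 7.76, 69.0, 36.1 and 14.7 CPM and without its highest cell at 47.5 CPM at 2 h and 13.7 CPM at 4 h. In LEF1-positive cells IL1RN was at 35.2, 43.7, 76.1 and 16.9 CPM.

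The largest falls were also mostly of this kind. SAA2, a serum amyloid gene, was at 39.5, 4.97, 2.24 and 4.07 CPM with 70.1% of its UMIs without LPS in 1 cell. ENSBTAG00000020242 was at 44.7, 6.90, 2.24 and 1.63 CPM with 97.5% without LPS in 1 cell. CCL2 was at 184, 168, 11.2 and 96.1 CPM, with 75.5% at 2 h in 1 cell, and CD14-positive cells had 34192, 10875, 6547 and 9968 CPM of it. S100A12 was at 32.1, 8.83, 7.35 and 42.4 CPM in the members and at 259, 7.95, 8.95 and 50.8 CPM in B cells, so that both classes were lowest at 2 h and 4 h.

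Other genes that were lower included some of metabolism and migration. CDC42EP3, an effector of the GTPase Cdc42, was at 24.7, 13, 8.95 and 13 CPM, and PDK1, a kinase that restrains pyruvate oxidation, at 52.8, 35.1, 22 and 33.4 CPM, with 0 to 4.34 CPM of either in CD14-positive cells. The log2 ratio of PDK1 at 4 h was -1.22, and -0.35 with cells thinned before the rule. MVD, an enzyme of the mevalonate pathway, was at 26.2, 13.5, 19.8 and 22 CPM. KLF2, a factor of quiescence and migration, was at 9.97, 2.21, 2.88 and 7.33 CPM, past 2-fold lower at 2 h and 4 h on 8 and 9 UMIs. LGALS3, a galectin, was at 738, 496, 382 and 589 CPM, and its log2 ratio at 4 h was -0.95 (-1.06 to -0.85), but CD14-positive cells held 1345 to 2139 CPM of it. All 5 were lower at each LPS time than without LPS.

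At 8 h the rises outside the interferon list included ZC3H10, at 72.8, 69.8, 86.3 and 182 CPM, and HSD17B10, a mitochondrial dehydrogenase, at 24.4, 26.5, 37.1 and 49.7 CPM. The log2 ratio of ZC3H10 at 8 h was 1.31, and 0.61 with cells thinned before the rule. ZC3H10 was also higher at 8 h in LEF1-positive cells, at 71.1 CPM without LPS and 194 CPM, and in B cells, at 80.7 and 185 CPM. The falls at 8 h included KLF3, a repressor, at 56.9, 49.4, 38.7 and 26.9 CPM, and PPIL1, a peptidyl-prolyl isomerase, at 46.5, 42.0, 48.6 and 22 CPM.

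Stress and amino acid genes moved at 1 time each. Past 2-fold higher were 1.45% of all genes compared at 2 h and 2.14% at 4 h. Of 13 genes of the ATF4 list after 4 h, 3 were past 2-fold higher, PSPH, SLC7A5 and SESN2, with a median of 0.57, and SLC7A5 alone with a pseudocount of 5 CPM, against medians of -0.15 after 2 h and 0.23 after 8 h. SLC7A5, a transporter of large neutral amino acids, was at 11.8, 19.3, 28.8 and 24.4 CPM. Of 12 heat shock genes HSPA1A alone was past 2-fold higher at 2 h, at 35.1, 77.3, 23.6 and 26.9 CPM, with 65.0% of its UMIs at 2 h in 1 cell and 27.0 CPM without it.

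Genes were ranked for variation among members by the library in which their ratio of variance to mean was lowest, and S100A4 came first. Its variance was 7.78 times its mean without LPS, 7.91 after 2 h, 10.8 after 4 h and 9.39 after 8 h in thinned cells, where the median of 2412 genes was 1.03 to 1.06. It was found after thinning in 25.6%, 26.5%, 25% and 20.5% of the members (37.8%, 34.5%, 34.0% and 28.2% unthinned) and in 7.36%, 5.05%, 4.53% and 7.37% of B cells. The next genes were UBD, BOLA, IDO1 and SRGN. ISG15 had a ratio of variance to mean of 3.14 without LPS and 21.4, 16.2 and 5.39 after 2, 4 and 8 h, above S100A4 at 2 h and 4 h and below it in the other libraries.

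In each library S100A4 was found in a smaller share of the members with CCR7 than of those without it. Of the thinned members with CCR7, 16.8% without LPS and 13.9%, 13.3% and 13.3% after 2, 4 and 8 h had S100A4, against 30.4%, 36.4%, 32.9% and 25% of those without CCR7. The LEF1-negative class therefore held cells with CCR7 beside cells with S100A4.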

How the data were processed

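Single-cell RNA was measured in 4 libraries, 1 per treatment. The authors deposited a table of raw UMI counts per gene and barcode for each library, made with Cell Ranger. The submitters' processing notes name the assembly ARS-UCD1.2, also called bosTau9. Rows with the same gene name were summed, so that 21861 listed genes, of which 83 names were duplicated, gave 21778 names. The chromatin accessibility libraries were not used here. Doublets were not removed beyond the conditions of the rule, and an alternative leaves out doublet-type cells.

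Counts were summed over the members of each library and divided by their total to give CPM, with a pseudocount of 1 CPM in ratios, and a gene was compared with at least 20 UMIs over the pair. For shares of cells, each cell was thinned to 2000 UMIs. With 1 library per treatment no test was run. Members and lists were chosen with earlier results of these data known. The 30 lists named 396 genes, of which 384 were found. Genes were named by rule: in each list the 4 with the most UMIs or the largest ratio, at each time the 10 largest ratios in either direction where a gene had 100 UMIs or more, the 10 highest and lowest against LEF1-positive cells and the 10 most variable. Some genes outside the rule were named after their values were seen. Alternatives changed the depth minimum, the rule, the pseudocount, the count minimum and the normalisation (edgeR TMM and DESeq2 size factors). Some genes, and 1 other setting of the rule, are not reported here. Scripts were tested on simulated data. Software was Python 3.11.15, numpy 2.4.6, pandas 2.3.3, scipy 1.17.1, matplotlib 3.10.9, R 4.3.3, edgeR 4.0.16 and DESeq2 1.42.0.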

Additional observations from a re-analysis of the deposited data

Results flagged for a closer look

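For 9 genes the members and the LEF1-positive CD4 cells moved in opposite directions against the library without LPS, each with an interval that did not include 0. The difference between the classes was not tested, since each class had 1 library per time. At 2 h the log2 ratio of CCL3 was 1.47 (1.31 to 1.65) in the members and -0.93 (-1.34 to -0.57) in LEF1-positive cells. CCL4 was at 0.91 (0.78 to 1.04) and -1.35 (-1.70 to -1.05), and CCL8 at 2.49 (2.11 to 3.04) and -1.09 (-2.01 to -0.37). HSPA1A was at 1.12 (0.80 to 1.49) and -0.76 (-1.39 to -0.20). In all 4 genes more than 50% of the members' UMIs at 2 h were in 1 cell. With the highest cell of each library, chosen after seeing the data, left out of both classes, CCL3 was at 2.26 and 0.72, CCL4 at 2.13 and 0.83, CCL8 at -0.66 and -0.84, and HSPA1A at 0.0045 and -1.04, so that CCL3, CCL4 and CCL8 no longer moved in opposite directions. With doublet-type cells left out CCL3 was at 0.42 and 0.90, CCL4 at -0.16 and 0.84, CCL8 at -0.69 and -0.65, and HSPA1A at -0.40 and -0.79.

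FCER1G, a signalling subunit of Fc receptors, was at 0.73 (0.28 to 1.26) in the members and -1.23 (-2.09 to -0.56) in LEF1-positive cells at 2 h, and the value in the members was 0.17 without its highest cell and 0.18 with doublet-type cells left out. IDO1, which degrades tryptophan, was at -0.40 (-0.74 to -0.08) and 0.50 (0.09 to 0.95), and IKZF2, a transcription factor of the Ikaros family, at 0.58 (0.05 to 1.2) and -0.68 (-1.39 to -0.04). At 4 h SRGN, a proteoglycan of secretory granules, was at 0.25 (0.21 to 0.28) and -0.06 (-0.11 to -0.01). At 8 h IL7R was at -0.21 (-0.31 to -0.12) and 0.18 (0.07 to 0.28). With cells thinned before the rule IDO1 was at 0.93 and 3.28, IKZF2 at 0.38 and 1.93 and SRGN at 0.05 and 0.36, so that both classes lay above 0, and IL7R was at 0.08 and -0.24, the reverse of the directions above. IDO1 and IKZF2 then rested on 1 and 2 UMIs in LEF1-positive cells without LPS.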

How the results depend on the processing

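No paired analysis was possible because each treatment was 1 library, and for the same reason no replicate could be left out. The share of members, 8.61%, 8.49%, 8.21% and 7.78% in order of time, was 3.83%, 3.92%, 3.89% and 4.43% with at least 2 CD4 UMIs, 4.43%, 3.84%, 3.65% and 4.11% with cells thinned before the rule, and 14.3%, 12.7%, 11.8% and 11.4% with doublet-type cells left out. This last setting also took B cells and monocytes with a UMI of CD79A, CD79B, CSF1R or LYZ out of the total. The members then still numbered 550, 718, 537 and 187, so the higher share reflects the smaller total. With at least 4000 UMIs the share was 9.17% at 2 h and 8.93% at 4 h. Genes past 2-fold higher and lower were 63 and 10 (2 h), 96 and 33 (4 h), and 34 and 25 (8 h) with a pseudocount of 5 CPM, where 1 interferon gene at 2 h and 4 at 8 h were higher. They were 69 and 23, 113 and 37, and 31 and 32 with a minimum of 50 UMIs, and 237 and 194, 282 and 263, and 343 and 336 with a minimum of 5 UMIs. At 8 h 5 interferon genes were higher with the minimum of 50 UMIs and with thinning, 2 NF-κB genes were higher with thinning, and 0 without the highest member of each gene. Against LEF1-positive cells the memory and effector median at 8 h was 0.81 against cells with at least 2 LEF1 UMIs. Under thinning the naive and homing median was -0.0069, 0.0086, 0.24 and -0.0082 in order of time, and the memory and effector median -0.054 without LPS and 0.50 at 4 h, with 165 genes higher and 123 lower in every library of 1853. Without the 8 h library, 1123 were higher and 1280 lower of 7534. With doublet-type cells left out, CCL8 was -0.69, HSPA1A -0.40 and TOP2A -0.25 at 2 h. Without the highest member, CCL8 was -0.66 and ENSBTAG00000020242 1.43 at 2 h, and CCL3 0.57 at 8 h. Thinning gave -0.63 for MT2A at 2 h, -0.66 for CXCL8 at 4 h, and 0.59 for CCL4 and -0.0026 for GBP2 at 8 h. The cause of these shifts was not tested, other than the omitted cells. Each shift was set against the margin of the gene's interval, the distance from its centre to either limit. Of 4966 recomputed gene values 4750 shifted by less than this margin, 206 moved by more, and 10 of genes past 2-fold changed direction. Where a count of 0 left the interval without a limit, a value that did not change direction was counted as staying. In all 120 changed sign, 25 of them of genes whose interval did not include 0. Of 1409 values of genes past 2-fold, 91 were no longer past it. These totals include values that could not move. A minimum of 50 or 5 UMIs, or leaving out genes high in CD14-positive cells, keeps each ratio as it was (387, 488 and 412 values). With cells thinned before the rule 176 values stayed, 143 moved and 4 changed direction. Leaving out the highest member, the genes high in CD14-positive cells or the 8 h library was chosen after seeing the data. With 195 members at 8 h, low genes there rest on few UMIs.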

Other observations

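The members held 66.7% of all IL22 UMIs of the library without LPS (26 of 39) and 2.96% at 2 h (23 of 777). IL22 was found in few members in both libraries, with most of its UMIs in 1 cell.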
